A study of Homo sapiens with 24 samples.

Results

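The CDK inhibitor genes CDKN1A, CDKN1B, CDKN1C, CDKN2A, CDKN2B, CDKN2C, CDKN2D and CDKN3 were examined for trimethylation of histone H3 at lysine 4 (H3K4me3), a mark of active and poised promoters. The genes were taken by name, as 8 of the 19702 protein-coding genes of GENCODE release 44. For each of them, all H3K4me3 regions lying in whole or in part within 2 kb of any start of its protein-coding transcripts were listed, and the region with the highest level was taken as the main region. This gave 16 of the 97545 regions.

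H3K4me3 was profiled by MINT-ChIP, a multiplexed form of ChIP-seq in which the chromatin of each sample is barcoded and the samples are then pooled for the immunoprecipitation. The cells were EndoC-βH3, a human beta-cell line of fetal pancreatic origin that was immortalized with hTERT and SV40 Large T antigen and carries a CreER recombinase. There were 4 samples of non-senescent cells, not treated, and 4 samples of senescent cells, treated with 4-hydroxytamoxifen (1 mM per the labels, while the study's methods give a micromolar dose) for 3 weeks, which activates the recombinase and removes the immortalizing genes. Both groups are labelled WT, and each sample held 500000 cells of this one line, with nothing in the labels to say that samples came from separate cultures.

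The data used here give one level per region, the authors' mean normalized count over the samples of both states together. The level is therefore a description of the line across the states. It has no replicate error, the depth of each sample is unknown, and senescent and non-senescent cells are not compared. Read counts over a region grow with its width. The members, and the lists of related genes, were therefore compared on the mean normalized count per kb of region. The level of the whole region is given beside it. In each list the highest and lowest genes were picked by level, and the order per kb can differ. Of all protein-coding genes, 14586 (74.0%) had a region by the same rule. Their main regions had a median level of 49.3 mean normalized counts (quartiles 21.6 and 88.6), a median width of 2498 bp and a median of 19.0 counts per kb (quartiles 12.4 and 26.8).

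CDK inhibitors bind cyclin-dependent kinases and hold back the cell cycle. The CIP/KIP proteins p21 (CDKN1A), p27 (CDKN1B) and p57 (CDKN1C) bind complexes of cyclins with kinases, while the INK4 proteins p16 (CDKN2A), p15 (CDKN2B), p18 (CDKN2C) and p19 (CDKN2D) bind the monomeric kinases that partner D-type cyclins and so keep the retinoblastoma protein in its active form. CDKN2A also encodes ARF from an upstream first exon read in another frame, and ARF stabilizes p53 by binding MDM2. CDKN3 is a phosphatase that dephosphorylates cyclin-dependent kinases. p16 accumulates in beta cells with age, p21 is a classical p53 target, and SV40 Large T binds both p53 and the retinoblastoma protein.

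The labelled cell type was checked against marker genes. Of 14 beta-cell markers, 13 had a region, with a median of 25.4 counts per kb, from 7.56 at IAPP to 38.1 at the transcription factor gene ISL1. INS had 14.0 counts per kb in a region with a level of 24.7, and the transcription factor gene MAFA had no region. The leukocyte markers PTPRC and CD3E, the liver marker ALB, the endothelial marker CDH5 and the duct marker KRT7 had no region. Acinar markers lay between 2.24 and 6.59 counts per kb, fibroblast markers between 6.28 and 8.16, and duct markers with a region between 9.86 and 11.0. The endothelial marker PECAM1 had 15.3 counts per kb. The alpha-cell markers GCG and IRX2 had 6.99 and 31.5 counts per kb. The regions of PECAM1, GCG and IRX2 covered no start of the gene. Nor did those of the beta-cell marker ABCC8, the acinar markers PRSS1 and PTF1A, the duct marker SOX9 and the fibroblast marker PDGFRA.

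The sequences just upstream of the start sites are shown for the main promoters, because the genes differ in both H3K4me3 and base composition there. Each is the stretch of 250 bases before a RefSeq start site (GRCh38.p14, the same coordinates as hg38), written 5′ to 3′ along the gene. Capitals mark the GC box letters GGGCGG, the CCAAT box letters CCAAT and the cell cycle homology region (CHR) letters TTTGAA or TTCGAA, on either strand and with overlapping matches counted apart.
CDKN1A, chr6:36678464-36678713, + strand: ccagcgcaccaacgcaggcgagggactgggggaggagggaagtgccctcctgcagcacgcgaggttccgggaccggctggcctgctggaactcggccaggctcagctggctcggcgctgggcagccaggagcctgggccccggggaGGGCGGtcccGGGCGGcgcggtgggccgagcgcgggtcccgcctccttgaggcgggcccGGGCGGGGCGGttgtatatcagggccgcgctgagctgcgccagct
CDKN1B, chr12:12717118-12717367, + strand: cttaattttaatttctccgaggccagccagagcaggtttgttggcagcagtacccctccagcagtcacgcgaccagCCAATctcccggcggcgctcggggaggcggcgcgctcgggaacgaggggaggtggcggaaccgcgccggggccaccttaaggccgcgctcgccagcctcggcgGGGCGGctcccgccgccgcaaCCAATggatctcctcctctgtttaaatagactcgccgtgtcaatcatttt
CDKN2A at the p16 start, chr9:21974858-21975107, - strand: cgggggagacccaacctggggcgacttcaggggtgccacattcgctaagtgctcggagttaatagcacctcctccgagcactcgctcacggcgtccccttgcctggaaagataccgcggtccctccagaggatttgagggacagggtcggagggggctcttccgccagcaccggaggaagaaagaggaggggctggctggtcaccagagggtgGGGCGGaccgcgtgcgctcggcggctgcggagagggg
CDKN2A at the ARF start, chr9:21995325-21995574, - strand: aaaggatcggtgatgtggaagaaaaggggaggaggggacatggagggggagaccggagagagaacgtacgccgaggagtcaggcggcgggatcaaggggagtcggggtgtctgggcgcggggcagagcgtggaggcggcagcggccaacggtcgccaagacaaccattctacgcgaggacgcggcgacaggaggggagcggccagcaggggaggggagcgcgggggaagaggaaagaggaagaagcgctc
CDKN2B, chr9:22009306-22009555, - strand: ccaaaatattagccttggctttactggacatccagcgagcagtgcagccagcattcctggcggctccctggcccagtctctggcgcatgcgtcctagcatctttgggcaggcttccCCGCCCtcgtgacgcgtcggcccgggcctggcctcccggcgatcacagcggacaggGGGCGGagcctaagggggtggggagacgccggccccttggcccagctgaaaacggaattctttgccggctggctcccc
CDKN2C at the reference start, chr1:50969995-50970244, + strand: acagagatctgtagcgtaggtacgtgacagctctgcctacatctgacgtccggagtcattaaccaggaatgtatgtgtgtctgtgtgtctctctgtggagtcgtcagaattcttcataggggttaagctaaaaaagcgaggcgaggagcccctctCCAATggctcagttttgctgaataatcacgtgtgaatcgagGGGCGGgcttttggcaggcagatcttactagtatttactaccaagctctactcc
CDKN3, chr14:54396757-54397006, + strand: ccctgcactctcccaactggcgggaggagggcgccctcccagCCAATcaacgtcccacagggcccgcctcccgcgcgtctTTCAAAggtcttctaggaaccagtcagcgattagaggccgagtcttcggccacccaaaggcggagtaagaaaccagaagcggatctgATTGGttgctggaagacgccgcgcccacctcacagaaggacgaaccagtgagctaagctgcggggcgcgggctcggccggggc

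The windows of the members held between 0 and 5 GC boxes. CDKN1A had 4 in its window, with 2 of them sharing bases, and CDKN2B had 2. The p16 start of CDKN2A had 1 GC box and the ARF start had 0, although both windows had a GC content of 66.8%. CDKN1B had 1 GC box with 2 CCAAT boxes, and CDKN3 had 0 GC boxes with 2 CCAAT boxes and 1 CHR. At CDKN2C the window before the reference start had 1 GC box and 1 CCAAT box with a GC content of 48.8%, the window before the start 1539 bp upstream had 5 GC boxes with a GC content of 77.2%, and the window before the start 9500 bp upstream had none of these letters with a GC content of 45.6%. CDKN2D had 2 GC boxes and 1 CCAAT box. Among 22199 windows of the same length, 53.7% held a GC box, 32.7% a CCAAT box and 12.1% a CHR. The TATA letters TATAAA (in 1999 of the windows) and the E2F words TTTCGCGC, TTTGGCGC, TTTCCCGC and TTTGCCGC (3.48% of windows) were not in these windows of the members, which says only that these letters were not found there. CDKN1C was not searched.

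All 8 genes had at least 1 region. Of the 16 regions, 10 covered a start site, and of 14 groups of start sites (starts within 1 kb of each other) 13 had a region within 2 kb. The main regions of 2 of the 8 genes covered no start, against 3418 of 14586 (23.4%) over all genes with a region. The INK4 genes CDKN2C, CDKN2A and CDKN2B and the CIP/KIP gene CDKN1B had the 4 highest levels, 312, 197, 159 and 89.6 mean normalized counts, each above the upper quartile of all promoters. CDKN3 followed with 43.9. CDKN1C, CDKN2D and CDKN1A had 20.8, 20.0 and 12.1, each below the lower quartile. Per kb of region the order was different. CDKN2B stood first with 58.8 counts per kb, and CDKN1B, CDKN2A, CDKN2C, CDKN1C, CDKN3, CDKN1A and CDKN2D followed with 25.0, 23.7, 23.5, 16.6, 12.1, 11.7 and 8.30. The highest and the lowest differed 7.09-fold per kb and 25.7-fold in the level of the whole region.

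**Figure D1:**
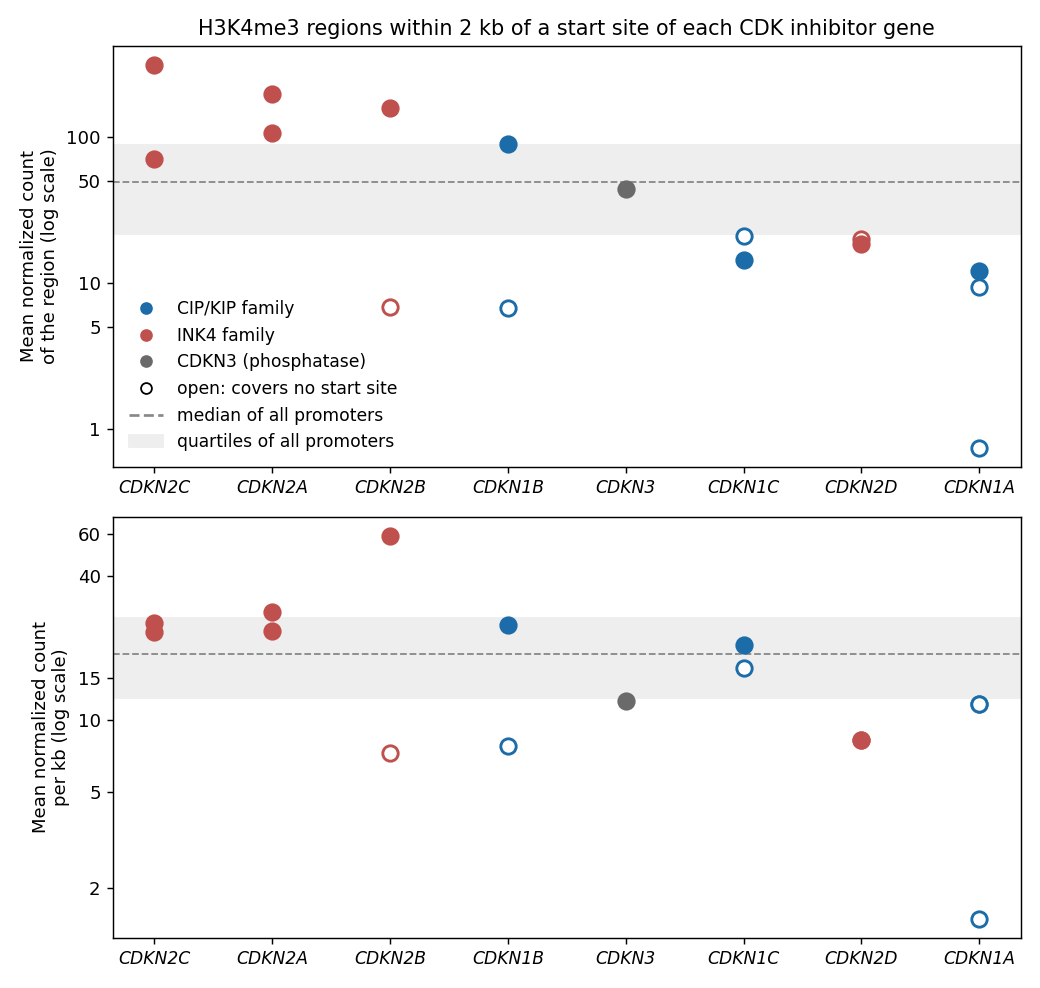
Each point is 1 of the 16 regions, with the gene on the x axis and, on log y axes, the authors' mean normalized count of the region (upper panel) and the same count per kb of region (lower panel). Filled points cover a start site and open points do not, the dashed line and grey band give the median and quartiles of 14586 main regions, and 4 genes lie above the band in the upper panel whereas by main region only CDKN2B, at 58.8, lies above it in the lower panel. The points of CDKN2D, and the upper points of CDKN1A, overlap in the lower panel.

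The order per kb has neighbours that lie close together. CDKN1B, CDKN2A and CDKN2C differed 1.05-fold and 1.01-fold in counts per kb, and CDKN3 and CDKN1A differed 1.03-fold. The step from CDKN2B to CDKN1B was 2.35-fold, and the steps from CDKN2C to CDKN1C, from CDKN1C to CDKN3 and from CDKN1A to CDKN2D were 1.42-fold, 1.37-fold and 1.41-fold. With no value per sample, none of these steps can be set against a spread between replicates.

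Among the CIP/KIP genes, CDKN1A had the least H3K4me3. Its main region, chr6:36678378-36679416, was 1038 bp wide and ran from 336 bp upstream to 702 bp downstream of the reference start, over the first exon and into the first intron. It had 12.1 mean normalized counts (percentile 15.7 of all promoters) and 11.7 counts per kb, 0.614 times the median promoter. The region also holds the start of DINOL, an antisense long noncoding RNA gene, and ChIP reads carry no strand, so the promoters cannot be told apart. A further region inside the first intron, chr6:36680172-36680968, had 9.30 counts over 796 bp, which at 11.7 counts per kb was the same density as the promoter itself. The remaining region, upstream of the start at chr6:36677425-36677925, had 0.744 counts over 500 bp. Within 50 kb of CDKN1A these 3 were the only regions.

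CDKN1A was the only one of the 8 genes with a match to the p53 consensus within 2 kb of a start site, allowing up to 2 mismatches outside the invariant core and no spacer. Such a match was found for 646 of 19676 genes (3.28%). The sequence is shown because CDKN1A is the classical p53 target in the family, with the core letters in capitals.
p53 match upstream of CDKN1A, chr6:36676449-36676468, + strand: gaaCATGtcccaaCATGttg
The match begins 2265 bp upstream of the reference start. It spans the first start of the upstream group of CDKN1A starts, at position 36676460, which lies 11 bp after the first base of the match. It was in no H3K4me3 region, and the nearest region edge was 957 bp away. The upstream group of starts itself was covered by no region. A match describes the letters and does not show binding.

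CDKN1B, the p27 gene, had a main region of 89.6 mean normalized counts (percentile 75.5) and 25.0 counts per kb, 1.32 times the median promoter. The region, chr12:12717179-12720760, was 3581 bp wide and began 189 bp before the reference start. It reached 3392 bp into the gene and covered 594 bp of coding sequence and 2316 bp of intron. A small region directly upstream, chr12:12716267-12717121, had 6.70 counts over 854 bp, or 7.84 per kb, so that the density was 3.19-fold higher downstream of the gap. Of the summed level of both regions, 93.0% was in the one that covers the start.

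CDKN1C, the p57 gene, is imprinted and short. Its highest region, chr11:2882859-2884115, had 20.8 mean normalized counts over 1256 bp and lay at the 3′ end of the gene, 1613 bp from the nearest start. It held 706 bp of untranslated exon sequence and 359 bp beyond the reference transcript. The region that covered the start, chr11:2885106-2885805, had 14.5 counts over 699 bp. Per kb the start region was the denser of the pair, with 20.7 counts against 16.6. The start-covering region was close to the median promoter per kb (percentile 55.9) while its level was low (percentile 18.1), over a width of 699 bp. The 1001 bp around the CDKN1C start had the highest GC content of the 8 genes, 74.2% (percentile 92.3 of all genes with a region).

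**Figure D2:**
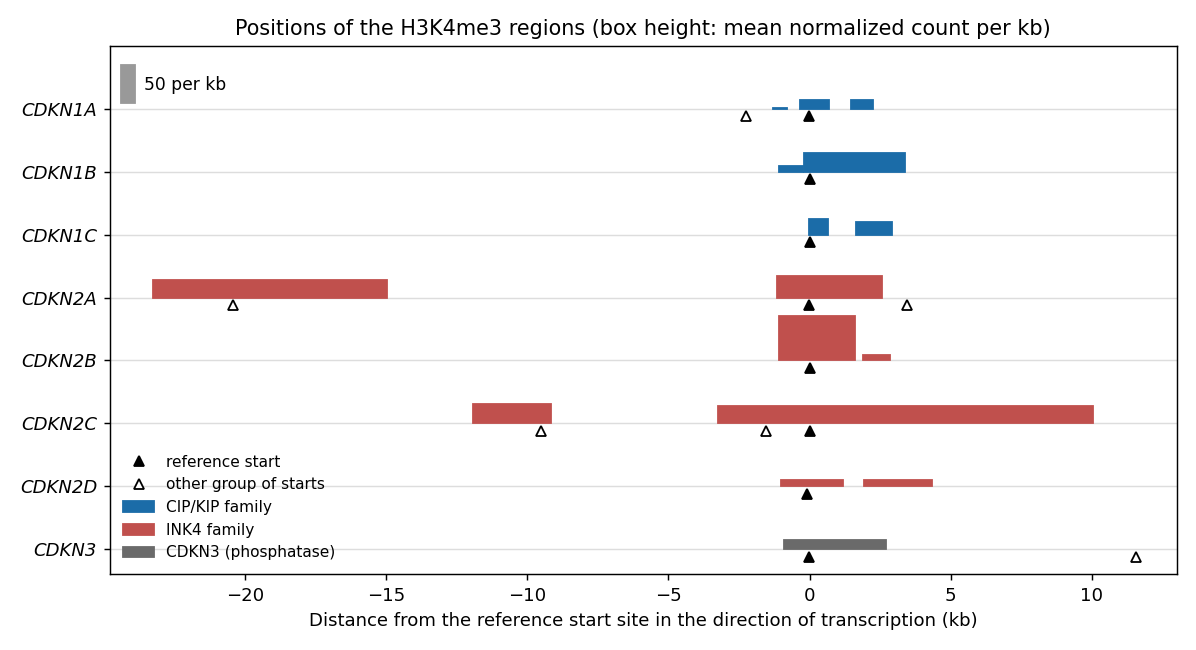
Each row is a gene and each box a region, placed by its distance in kb from the reference start site in the direction of transcription (x axis), with the box height giving mean normalized counts per kb on the scale of the grey bar. Triangles mark start sites (filled, reference; open, other groups of starts). The CDKN2C box runs from -3.24 to 10.0 kb, and the CDKN2B box is the tallest at 58.8 counts per kb.

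In the INK4 family, CDKN2A had separate regions at its separate promoters. The region at the ARF starts, chr9:21989815-21998137, was 8322 bp wide with 197 mean normalized counts (percentile 97.1) and 23.7 counts per kb. The region at the p16 start, chr9:21972274-21976026, was 3752 bp wide with 106 counts (percentile 82.4) and 28.3 counts per kb. In the level of the whole region the ARF promoter was 1.86-fold higher than the p16 promoter, whereas per kb it was 0.839 times as high. The p16 region ran from 1169 bp upstream to 2583 bp downstream of the p16 start and covered the complete p16 first exon, including 150 bp of coding sequence. Another group of CDKN2A starts, 3457 bp downstream of the reference start, was covered by no region, and the nearest was the p16 region at 874 bp.

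The ARF region is shared with a neighbour. It also holds 11 start sites of CDKN2B-AS1 (ANRIL), the long noncoding RNA read on the opposite strand, and 1 start of a lncRNA gene without a symbol. How much of the 197 counts belongs to each promoter cannot be told apart. Between the ARF and p16 promoters lay a region of 36.7 mean normalized counts over 3008 bp, chr9:21985755-21988763, or 12.2 per kb, that holds no annotated start. Beyond the 3′ end of CDKN2A, a region at chr9:21964985-21966167 had 16.3 counts over 1182 bp, also without a start.

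CDKN2B, the p15 gene beside CDKN2A, had the densest mark of the family. Its main region, chr9:22007693-22010396, had 159 mean normalized counts (percentile 94.0) over 2703 bp, which is 58.8 counts per kb and 3.10 times the median promoter. It ranked 108 among 14586 promoters per kb (percentile 99.3). Per kb it was 2.48-fold denser than the ARF region and 2.08-fold denser than the p16 region. The width of the CDKN2B region was close to that of the median promoter (1.08 times), while the ARF region was 3.33 times as wide. A second region inside the gene, chr9:22006466-22007401, had 6.82 counts over 935 bp. Of its 31-base words, 81.2% were unique in the genome, the lowest share among the 16 regions.

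From CDKN2A to CDKN2B with 50 kb on either side, the locus held 11 regions. The regions at the p16, ARF and CDKN2B starts had 106, 197 and 159 counts. The other 8 held no start site and had between 1.15 and 36.7 counts.

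CDKN2C, the p18 gene, had the highest level of the 8 genes and one of the widest regions of all promoters. The main region, chr1:50967003-50980280, was 13277 bp wide, 5.32 times the median, and ranked 39 in width and 72 in level among 14586 promoters. It had 312 mean normalized counts (percentile 99.5). Per kb it had 23.5 counts, 1.24 times the median promoter (percentile 65.4). The region began 3242 bp before the reference start, covered both downstream groups of CDKN2C starts and the complete reference transcript, and ended 5646 bp beyond it. It also holds 1 start of a lncRNA gene without a symbol on the opposite strand (ENSG00000290102), and how much of the 312 counts belongs to each gene cannot be told apart. Main regions of 8 kb or more were found at 191 genes (1.31%), and CDKN2C and CDKN2A were the members among them.

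The upstream CDKN2C start, 9500 bp upstream of the reference start, lay in a separate region, chr1:50958311-50961089, with 71.0 mean normalized counts over 2778 bp, or 25.5 per kb. This region also holds 2 start sites of FAF1, which encodes a FAS-associated factor and is read in the opposite direction, so the share of each gene in the 71.0 counts cannot be told apart. The 2 CDKN2C regions differed 4.40-fold in level, 4.78-fold in width and 0.920-fold in counts per kb. The 1001 bp around the reference start of CDKN2C had the lowest GC content of the 8 genes, 48.7%, at percentile 6.64 of all promoters.

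CDKN2D, the p19 gene of the INK4 family, had low counts in both regions within 2 kb of its starts. The region that covered its start, chr19:10567784-10569999, had 18.4 mean normalized counts over 2215 bp. The main region by level, chr19:10564634-10567039, had 20.0 counts over 2405 bp. It lay 1940 bp from the nearest CDKN2D start, overlapped the 3′ end of the gene and held 8 start sites of KRI1, a gene for a nucleolar protein on the same strand, so it is the KRI1 promoter as the annotation has it. The main and the start-covering region had 8.30 and 8.29 counts per kb, both at percentile 11.1, the main region having the lowest density among the main regions of the family and 0.437 times the median promoter.

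CDKN3 had 1 region, chr14:54396094-54399730, with 43.9 mean normalized counts (percentile 45.5) over 3636 bp. The region was 1.46 times as wide as the median promoter and had 12.1 counts per kb, 0.635 times the median. It ran from 913 bp upstream of the start to 2723 bp inside the gene, mostly over the first intron. Of its 31-base words 88.0% were unique, the lowest share among the 8 main regions. The second group of CDKN3 starts, 11557 bp downstream, had no region within 2 kb.

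**Figure D3:**
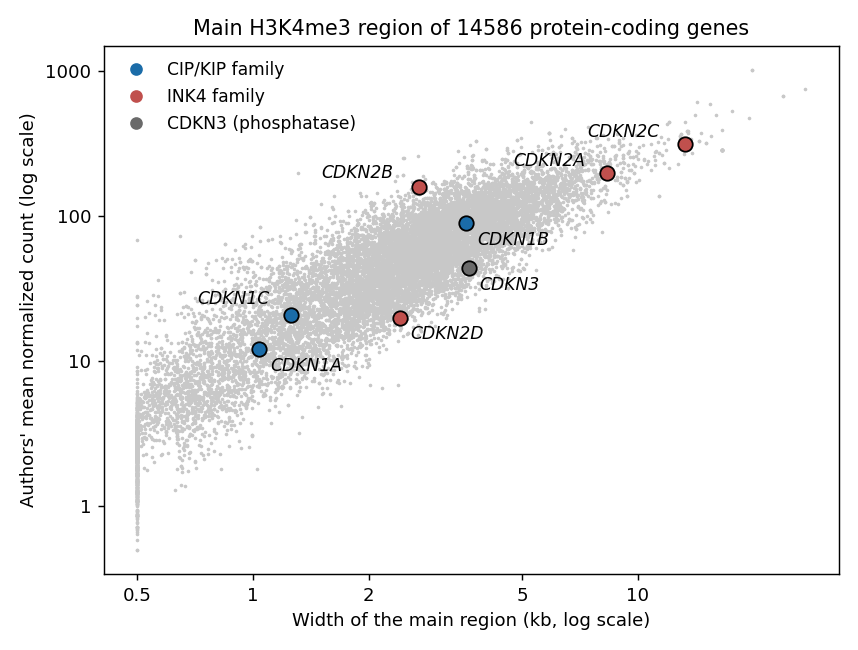
Each grey point is the main region of 1 of 14586 protein-coding genes, with its width in kb on the x axis and the authors' mean normalized count on the y axis, both log scales, and the coloured points are the 8 CDK inhibitor genes. CDKN2C and CDKN2A lie at the wide end (13.3 and 8.32 kb), and CDKN2B lies at the upper edge of the cloud for its width of 2.70 kb.

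Width and level went together over all promoters, with Spearman's rho of 0.874 across 14586 genes, which share the same libraries. Level and the GC content of the 1001 bp around the reference start had a rho of -0.16 across the same genes, and counts per kb -0.131. With the GC content of the main region itself, rho was -0.472 for level and -0.359 for counts per kb. With genes split into 5 groups from low to high start GC content, the median level was 55.3, 63.4, 53.7, 45.3 and 31.7 mean normalized counts. Over the 8 CDK inhibitor genes, rho between start GC content and level was -0.69, and between start GC content and counts per kb it was -0.452. The window and the main region can lie apart. At CDKN2A the window is at the p16 start and the main region at the ARF starts, and the main regions of CDKN1C and CDKN2D cover no start. At CDKN2C the 250 bases before the start 1539 bp upstream, in the same main region, had a GC content of 77.2%. CDKN2C and CDKN1C were the extremes of start GC content, at 48.7% and 74.2%. CDKN1A, CDKN2A and CDKN2B were near the median of 63.3%, with 64.4%, 62.6% and 61.9%. Their main regions had a GC content of 68.0%, 45.8% and 44.9%, and 11.7, 23.7 and 58.8 counts per kb. Whether GC content bears on the counts was not tested. These values are descriptions of genes that share their libraries.

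The neighbourhoods of the genes differed in the same data. Within 50 kb, the regions of CDKN2C made up 89.3% of the summed level, and those of CDKN1C 63.7%, with 7.28 counts at PHLDA2 as the strongest other region. At CDKN1B the strongest region nearby was not its own main region but one of 181 mean normalized counts at chr12:12695073-12697880. It holds starts of GPR19 and of CDKN1B transcripts that are not annotated as protein-coding. At CDKN2D the strongest nearby was 44.2 counts at AP1M2, and at CDKN3 it was 64.1 at CNIH1.

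Genes that act with the CDK inhibitors were described by the same rule. Of 11 genes for cyclins and their kinases 9 had a region, with a median of 17.9 counts per kb, and 4 of these were above the median of all promoters, 19.0. By level of the whole region 8 were above the median promoter, with a median of 59.9 against 49.3. CCND3 (cyclin D3) had the highest level, 97.9 mean normalized counts and 47.9 per kb. CCNE1 (cyclin E1) had the lowest, 16.6 counts and 17.6 per kb, in a region that covers none of its starts. CCND1 and CCND2, the other D-type cyclin genes, had no region. All 3 genes of the retinoblastoma family were above the upper quartile per kb, with a median of 30.9. RBL1 had the highest level of them with 132 counts, and RBL2 the lowest with 103.

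Of the 8 E2F genes, 4 were above the median promoter per kb and the median was 17.3 counts per kb. By level of the whole region 1 was above it, with a median of 27.9 against 49.3. E2F5 had the highest level at 82.4 mean normalized counts and E2F6 the lowest at 16.8, both in regions within 2 kb that cover no start of the gene. The 5 genes of the p53 axis were all above the median promoter, with a median of 30.0 counts per kb. ATM, the kinase that signals DNA breaks, had the highest level of them at 178 counts, and CHEK2 had the lowest at 72.3. Among 7 genes that act at the INK4 locus, for Polycomb proteins and the histone demethylase KDM6B, 5 were above the median promoter per kb. Their median was 24.6 counts per kb, and by level 4 were above the median promoter. EED was highest in level at 138 counts and CBX7 lowest at 14.1, in a region that covers no CBX7 start. For p27 turnover, CKS1B had 334 counts and 68.5 per kb, and FBXW7 had 58.9 counts and 12.2 per kb.

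Beside these lists, the 8 CDK inhibitor genes had a median of 20.0 counts per kb, with 4 above the median promoter, 1 above the upper quartile and 3 below the lower quartile. Their range, 8.30 to 58.8 counts per kb, reached below the lowest value of each of these 6 lists, 9.77 at E2F1 being the nearest. The regions behind the 8.30, at CDKN2D, and the 9.77 cover no start of their gene.

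**Figure D4:**
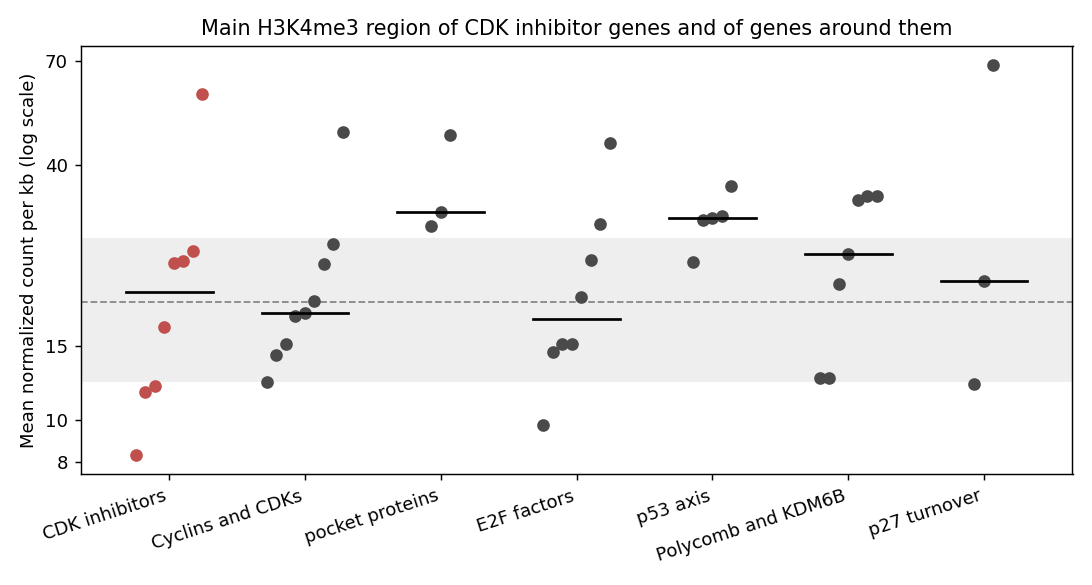
Each point is the main region of a gene, grouped on the x axis by list, with mean normalized counts per kb on a log y axis, a bar at each list's median, and the dashed line and grey band at the median and quartiles of all promoters. The CDK inhibitor genes, in red, run from 8.30 to 58.8 counts per kb, and the retinoblastoma family (pocket proteins) lies above the band.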

How the data were processed

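Per the labels and the study's methods, MINT-ChIP reads were aligned by the authors to hg38 with Bowtie2 and processed with samtools, and H3K4me3 peaks came from HOMER. The merging of peaks between samples, the read counting and any removal of duplicates are not given in the sources used here. The deposited signal of a region is its mean read count over samples after normalization by the authors with DESeq2, not divided by width. The table's other 5 columns hold the authors' comparison of the states (log2 fold change, its standard error, statistic, p-value and adjusted p-value) and were not used, so no test was possible, and a level is 1 mean over both states (the table does not say which samples entered). Whether region starts count from 0 or 1 is not stated, which leaves positions uncertain by 1 base. The H3K27me3 and H3K9me3 samples (16 of 24) are not analysed here.

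Start sites of protein-coding transcripts came from GENCODE release 44. Each gene was given its regions within 2 kb of any start. A percentile is the share of main regions of the 14586 genes with a region that have a lower value. Sequence came from hg38 and from RefSeq windows. The p53 consensus was searched in hg38 on both strands. Unique words are 31-base words found once in 194 hg38 sequences. The linking of regions to genes was tested on simulated data. The 8 members, the lists and the alternatives were chosen with earlier results of these data known. The genes named are the members, genes that share their regions, the markers, and of each list the genes with the highest and lowest level and those with no region (1 marker is not reported here), and GPR19, AP1M2, CNIH1 and PHLDA2 were added as the starts at the strongest nearby regions. The tools were Python 3.11.15, matplotlib 3.10.9, numba 0.67.0, scipy 1.17.1, pandas 2.3.3 and numpy 2.4.6.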

Additional observations from a re-analysis of the deposited data

How the results depend on the processing

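All 8 CDK inhibitor genes had a region with windows of 1 kb, 2 kb or 5 kb and when the region had to cover a start site. Of all 19702 protein-coding genes, 14214, 14586 and 15367 had a region with these windows. The share of all genes with a region covering a start was not counted. CDKN2C, CDKN2A, CDKN2B and CDKN1B were the first 4 genes in each of the 8 settings ranked. The median level of the 8 genes, 66.7 mean normalized counts, became 70.1 when all regions of a gene were summed, 20.0 per kb of region, and 101 with the start sites of all transcripts, where CDKN1B took the region of 181 counts. Their median percentile among all promoters, 60.5, became 59.8 with 1 kb, 61.4 with 5 kb, 62.3 with the region nearest a start, 60.9 with 1 start per gene, 52.8 per kb, 57.6 with the sum, 69.8 with all transcripts, 63.0 over 12836 distinct regions and 70.7 with genes without a region kept at 0. By gene, CDKN2D became 18.4 and CDKN1C 14.5 with 1 kb or the nearest region, and CDKN2A became 106 with 1 start per gene. The start sites of all transcripts and the need to cover a start were chosen after seeing the data. No paired analysis was possible because the data used give 1 mean per region over all samples, and leaving out a sample was not possible for the same reason. With no depth or spread per sample, no level has an error.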
